A study of Mus musculus with 32 samples.

Results

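Ephrins and Eph receptors form a signalling family between touching cells, and 10 of its genes were examined here in the forebrain (Fb) and midbrain (Mb) of the mouse embryo at E9.5. They were the ephrins Efna2, Efna5, Efnb1, Efnb2 and Efnb3 and the receptors Epha3, Epha4, Epha7, Ephb1 and Ephb2. They were chosen by name as genes of the family, with earlier results of these data known. They were found by the Ensembl identifiers that carry these symbols on GRCm38, and all 10 were present among the 48576 identifiers of the files. The whole family has 22 genes, and the other 12 are counted further on. RNA was sequenced from dissected tissue of B6C3F1 embryos, and each tissue had 6 libraries of WT, 4 of TKO_Ex, 3 of DKO_Ex and 3 of DKO_CD, 32 in all. WT carried no edited cadherin. TKO_Ex embryos had lost Cdh6, Cdh8 and Cdh11 and showed exencephaly, an open cranial neural tube. DKO_Ex embryos lacked Cdh8 and Cdh11, with exencephaly. The labels give DKO_CD as embryos without Cdh6 and Cdh8 that had a cranial defect, whereas the study's text treats both DKO groups as Cdh8/11 mutants and describes an elongated Mb without exencephaly. All mutant alleles were small CRISPR/Cas9 deletions at the start codon that came from a founder stock heterozygous at the 3 loci, so each gene was tested with 1 allele. The 12 DKO files carry a heading that names the opposite DKO group from their record. Values here follow the heading, and going by the record would swap the names DKO_Ex and DKO_CD. Litters or embryos behind the replicate numbers are not named, so p-values measure the spread between these libraries.

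In this family the ligand and the receptor both sit in the plasma membrane. A-type ephrins are anchored by a lipid and bind mainly the EphA receptors, whereas B-type ephrins cross the membrane and bind mainly the EphB receptors, with EphA4 as the best known receptor of both types. Contact between a cell with the ligand and a cell with the receptor often ends in repulsion, which keeps cell groups apart at tissue boundaries and guides axons. In the midbrain, ephrin-A2 and ephrin-A5 are known from the tectum, where they guide the axons of the retina.

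In WT 4 of the 10 members passed the test between the tissues, where 8.26% of all 13344 genes tested passed. Efna2, Efnb3 and Efnb1 were higher in the Mb than in the Fb, by ratios of mean FPKM of 3.55, 2.8 and 1.68 in WT, and Epha4 was 2.02 times higher in the Fb. In these 4 genes the ranges of the 16 Mb and the 16 Fb libraries did not overlap, which held for 1.53% of all 13441 genes. The other 6 members overlapped between the tissues in WT. No member passed the test between a mutant group and WT in either tissue, where 0.0375% to 0.0903% of all genes passed.

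The sequences upstream of 3 of these 4 genes are printed because the genes differ between the same 2 tissues in opposite directions. They are the 250 bases before the RefSeq start on GRCm38.p6, 5′ to 3′ on the gene's strand, at chr10:80179232-80179481 for Efna2 (plus strand), chrX:99135811-99136060 for Efnb1 (plus strand) and chr1:77515089-77515338 for Epha4 (minus strand). Capitals mark GC-boxes, spelled GGGCGG, searched on both strands. No sequence of Efnb3 is printed.
Efna2: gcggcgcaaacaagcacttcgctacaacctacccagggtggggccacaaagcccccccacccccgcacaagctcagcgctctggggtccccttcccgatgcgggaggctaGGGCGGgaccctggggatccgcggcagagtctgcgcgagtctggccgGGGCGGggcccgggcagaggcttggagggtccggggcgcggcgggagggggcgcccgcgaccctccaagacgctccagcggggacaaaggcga
Efnb1: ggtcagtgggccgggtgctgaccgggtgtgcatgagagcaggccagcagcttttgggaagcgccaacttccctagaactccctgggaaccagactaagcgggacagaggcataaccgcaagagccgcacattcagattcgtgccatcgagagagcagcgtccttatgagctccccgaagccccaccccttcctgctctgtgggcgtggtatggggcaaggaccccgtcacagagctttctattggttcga
Epha4: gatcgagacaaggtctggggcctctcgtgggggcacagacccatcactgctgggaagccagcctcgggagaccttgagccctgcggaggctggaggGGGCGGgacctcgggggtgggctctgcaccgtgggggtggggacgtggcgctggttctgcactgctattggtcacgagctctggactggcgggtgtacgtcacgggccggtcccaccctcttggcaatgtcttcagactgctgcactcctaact

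Efna2 held 2 GC-boxes, Epha4 held 1 and Efnb1 held 0, and 32.7% of all 32851 RefSeq windows of this length held at least 1. GC content was 73.6% for Efna2, 66% for Epha4 and 60% for Efnb1, against a median of 52.4% over all windows. The letters of 3 further motifs, also read on both strands, were in none of the 3 windows. These were TAATTA, a core recognised by many homeodomain proteins, which 4.84% of all windows held, the E-box CANNTG, which 66.2% held, and TATAAA, which 12.4% held. A match or its lack describes these letters in this window.

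The tissue labels were checked against marker genes before the members were compared. Six3, a transcription factor of the anterior forebrain, was at 33.1 to 56.9 FPKM in the 16 Fb libraries and at most at 1.57 in the Mb. En2, a transcription factor of the midbrain and isthmus, was at most at 0.52 FPKM in the Fb and at 8.35 to 74.7 in the Mb. In 1 WT Mb library, replicate 5, En1 was at 3.57 FPKM against 32 to 59 in the other 5, and Pax6, a forebrain marker at this stage, was at 52.7. Not every listed marker parted the tissues. Pax6 was at 44.5 to 70.1 FPKM in the Fb and 5.15 to 52.7 in the Mb, and Barhl2 at 0.627 to 14.8 and 0 to 8.47. The 8 forebrain markers summed to 168 to 322 FPKM in the Fb and 6.8 to 72.5 in the Mb. Those of the midbrain and isthmus, also 8, summed to 20.6 to 57.6 and 59.6 to 240. Of the other cell types listed, the summed FPKM of 6 neural crest and mesenchyme markers was 52 to 142 in the Fb and 42.7 to 113 in the Mb, and of these Foxd3 stayed under 1 FPKM in all Fb libraries. The sum of 5 surface ectoderm markers was 51.8 to 208 in the Fb and 19 to 63.6 in the Mb, where Grhl3 stayed under 1. That of 3 early neuron markers was 1.74 to 20 in the Fb and 18.6 to 44 in the Mb. In WT alone the tissue ranges of these sums did not overlap. Neural crest and mesenchyme was at 106 to 142 in the WT Fb and 42.7 to 71.9 in the WT Mb. Surface ectoderm was at 51.8 to 84.2 and 21.5 to 34, and early neurons at 1.74 to 5.69 and 20.1 to 42.5. The 6 endothelial markers summed to 19.5 to 47.5 and 24.3 to 46.3 FPKM. The 4 red cell genes summed to 2393 to 21473 in the Fb and 4681 to 21283 in the Mb. Of 6 hindbrain markers, Hoxb1, Hoxb2 and Egr2 stayed under 1 FPKM in every library. The part of surface ectoderm, mesenchyme and neurons in the tissue differences below was not tested, and in such tissue fewer cells of a type and less RNA per cell cannot be told apart. The estimated depth was 2060000 to 3430000 fragments a library. Cdh6 ranged from 0.345 to 3.74 FPKM in TKO_Ex and was highest in replicate 3 of both tissues, within the WT ranges of 2.04 to 4 in the Fb and 1.04 to 3.55 in the Mb. In DKO_CD, labelled as lacking it, Cdh6 was at 1.72 to 3.43 in the Fb and, within the WT range, at 1.29 to 2.11 in the Mb. Cdh8 in the Mb was at 1.14 to 10.1 FPKM in WT, 0.851 to 2.32 in TKO_Ex, 1.63 to 2.49 in DKO_Ex and 1 to 1.47 in DKO_CD. Cdh11 in the Mb was at 17.9 to 28.7, 14.5 to 16.6, 17.6 to 18.7 and 16.6 to 27.2 in the same groups. The deletions are short, so the level of the remaining transcript checks the genotype in part.

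**Figure D1:**
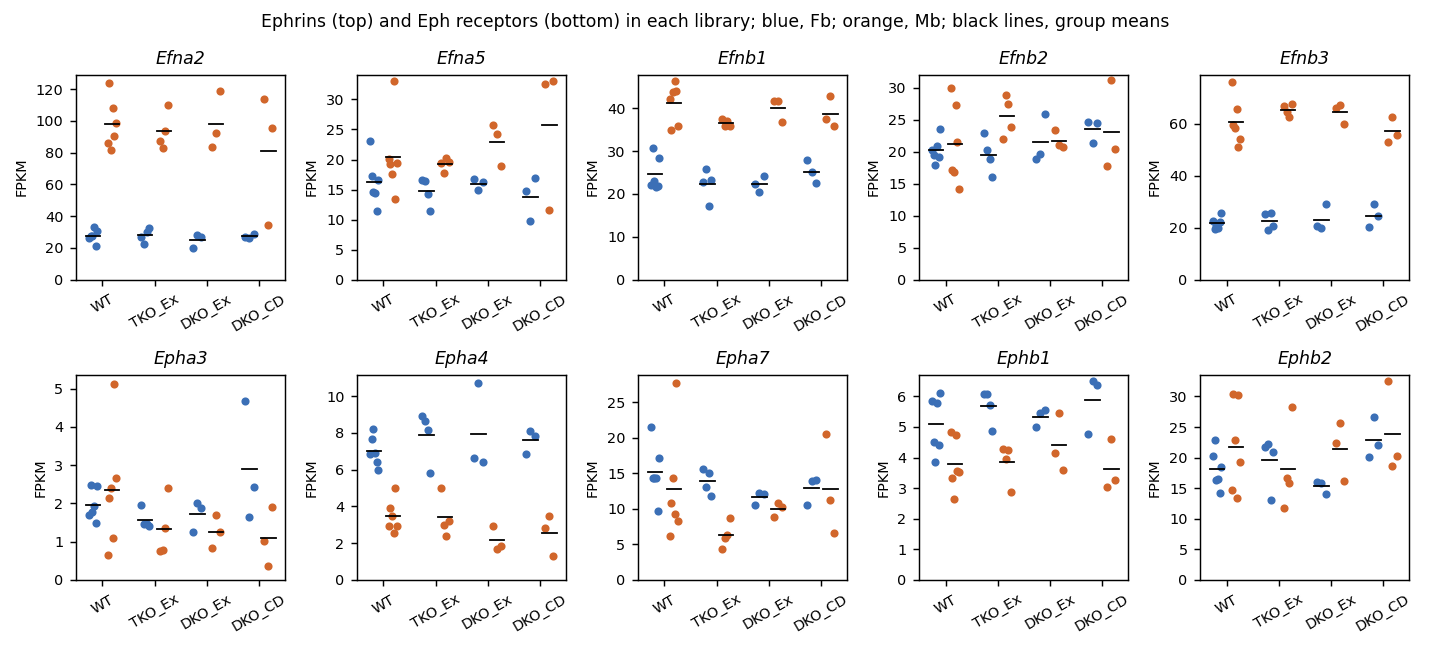
FPKM of the 5 ephrins (top row) and 5 Eph receptors (bottom row) in each library, by group, with Fb in blue, Mb in orange and the group mean as a black line. Efna2, Efnb1 and Efnb3 lie higher in every Mb library than in any Fb library and Epha4 lies lower, whereas the other 6 genes overlap.

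Among the ephrins, Efna2, an A-type ligand at chr10:80179482-80190010, showed the largest tissue difference in WT. In the 6 WT Fb libraries it was at 20.9 FPKM (lowest), 27.4 (median) and 33.3 (highest), and in the 6 WT Mb libraries at 81.5, 94.5 and 124. The lowest Mb library therefore stood well above the highest Fb library. The means were 27.6 ± 4.17 and 98.1 ± 15.7 FPKM (SD, n = 6 each), and the difference on the log2(FPKM + 1) scale was 1.79 ± 0.12 (SE), with an adjusted p of 6.23e-07 (limma, Benjamini-Hochberg over all genes). TKO_Ex gave 26.7, 22.4, 29.8 and 32.3 FPKM in the Fb and 87.6, 82.7, 93.8 and 110 in the Mb. DKO_Ex gave 19.9, 28.2 and 26.8 in the Fb and 83.3, 92.4 and 119 in the Mb. In these groups too the tissues were apart, with log2 differences of 1.72 ± 0.14 (adjusted p = 2.22e-04, limma) and 1.93 ± 0.18 (adjusted p = 0.00285, limma). DKO_CD gave 26.6, 26.1 and 28.7 FPKM in the Fb and 114, 34.5 and 95.4 in the Mb. Replicate 2 of the DKO_CD Mb was thus the lowest of all Mb libraries, although still above every Fb library. The DKO_CD difference of 1.38 ± 0.41 did not pass (adjusted p = 0.302, limma), and without that library it was 1.91 and passed with an adjusted p of 0.00704 (limma). In that library the mesenchyme markers summed to 113 FPKM and the surface ectoderm markers to 63.6, the highest of the 16 Mb libraries for each, and the part of this in the low Efna2 level was not tested.

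Efnb3, a transmembrane B-type ligand at chr11:69554092-69560205, was next in size. It was at 19.3, 21.3 and 25.4 FPKM (lowest, median, highest) in the WT Fb and at 50.9, 58.8 and 76 in the WT Mb. The ranges were far apart. The WT log2 difference was 1.44 ± 0.10 (adjusted p = 9.62e-07, limma), from means of 21.6 ± 2.25 and 60.7 ± 9.03 FPKM (SD, n = 6 each). TKO_Ex had 25.1, 19.1, 25.5 and 20.6 FPKM in the Fb and 66.9, 64.3, 62.5 and 67.5 in the Mb. The 4 TKO_Ex Mb libraries lay within a range of a few FPKM. DKO_Ex had 20.5, 19.7 and 28.9 in the Fb and 65.8, 67.2 and 59.8 in the Mb, and DKO_CD had 20.3, 29 and 24.4 in the Fb and 52.8, 62.6 and 55.5 in the Mb. The log2 differences in the 3 mutant groups were 1.50 ± 0.11, 1.46 ± 0.16 and 1.19 ± 0.15, with adjusted p of 1.60e-04, 0.00528 and 0.0286 (limma). Efnb3 was the member that passed in all 4 groups, but in DKO_CD the call was lost without any 1 of 5 of the 6 libraries, the exception being Fb replicate 2, and with no filter (adjusted p = 0.0609, limma).

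Efnb1, the X-linked B-type ligand at chrX:99136130-99148991, differed less but without overlap. It was at 21.6, 22.5 and 30.6 FPKM (lowest, median, highest) in the WT Fb and at 34.8, 43.1 and 46.4 in the WT Mb. The WT means were 24.6 ± 3.87 and 41.2 ± 4.74 FPKM (SD, n = 6 each), with a log2 difference of 0.73 ± 0.11 (adjusted p = 6.41e-04, limma). TKO_Ex had 22.7, 25.9, 17.1 and 23.3 FPKM in the Fb and 37.5, 35.9, 37.1 and 35.9 in the Mb. DKO_Ex had 22.3, 20.5 and 24.1 in the Fb and 41.6, 41.8 and 36.8 in the Mb, and DKO_CD had 27.9, 25 and 22.6 in the Fb and 37.4, 42.9 and 35.9 in the Mb. The tissues were apart in each group. The differences were 0.71 ± 0.13 in TKO_Ex (adjusted p = 0.0201, limma) and 0.82 ± 0.12 in DKO_Ex (adjusted p = 0.0147, limma). In DKO_CD the value of 0.60 ± 0.13 missed the threshold (adjusted p = 0.142, limma). The TKO_Ex call was lost when any 1 of the 4 Mb libraries was left out, with values of 0.70 to 0.72. That of DKO_Ex was lost in 6 of 13 other fits. Fitting the replicate number as a block ended both calls.

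The other A-type ligand, Efna5, is known as a partner of Efna2 in the tectum and overlapped between the tissues in WT. It was at 11.4, 15.6 and 23.1 FPKM (lowest, median, highest) in the WT Fb and at 13.4, 19.3 and 33 in the WT Mb. The WT difference of 0.30 did not pass, and its 95% interval ran from -0.12 to 0.71 on the log2 scale. The Mb libraries of TKO_Ex, at 19.5, 17.7, 20.3 and 19.6 FPKM, were above the Fb libraries of that group, at 16.6, 16.4, 14.3 and 11.5. In DKO_Ex the Mb, at 25.8, 24.3 and 18.9, was likewise above the Fb, at 16.8, 14.9 and 16.2. The differences of 0.38 and 0.49 had intervals above 0 but missed the adjusted threshold (adjusted p = 0.245 and 0.18, limma). DKO_CD spread most, with 14.7, 9.81 and 16.9 FPKM in the Fb and 32.6, 11.6 and 33 in the Mb. Its low Mb value came from replicate 2, the library that was also lowest for Efna2. Efnb2, a B-type ligand also known from arteries, was at 17.9 to 23.6 FPKM in the WT Fb and at 14.1 to 30 in the WT Mb. Its WT difference was 0.02, with an interval of -0.33 to 0.37. TKO_Ex Fb libraries held 22.9, 20.2, 18.8 and 16.1 FPKM and its Mb libraries 21.9, 28.9, 27.5 and 23.9, a difference of 0.38 that did not pass (adjusted p = 0.273, limma). The DKO groups overlapped as well, DKO_Ex with 18.8, 19.6 and 25.9 FPKM in the Fb and 23.4, 21 and 20.8 in the Mb, and DKO_CD with 24.6, 21.4 and 24.5 in the Fb and 17.8, 31.2 and 20.4 in the Mb. The highest of these, in replicate 2 of the DKO_CD Mb, came from the library that was lowest for Efna2 and Efna5.

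Among the receptors, Epha4, which binds both ephrin types, was the member with the opposite direction. The gene lies at chr1:77367185-77515088. It was at 6.01, 6.88 and 8.21 FPKM (lowest, median, highest) in the WT Fb and at 2.53, 3.2 and 4.99 in the WT Mb. The means were 7.01 ± 0.801 and 3.47 ± 0.891 FPKM (SD, n = 6 each), and the log2 difference, Mb minus Fb, was -0.86 ± 0.14 (adjusted p = 0.00109, limma). The WT ranges did not overlap, and the highest WT Mb value came from replicate 5, the library with little En1. TKO_Ex had 8.92, 8.68, 8.18 and 5.82 FPKM in the Fb and 4.99, 2.99, 2.4 and 3.21 in the Mb. DKO_Ex had 6.63, 10.7 and 6.44 in the Fb and 2.91, 1.69 and 1.83 in the Mb, and DKO_CD had 6.88, 8.12 and 7.84 in the Fb and 2.84, 3.46 and 1.32 in the Mb. Every Mb library of every group was thus below every Fb library. The differences were -1.03 ± 0.21 in TKO_Ex (adjusted p = 0.0348, limma), -1.49 ± 0.26 in DKO_Ex (adjusted p = 0.031, limma) and -1.33 ± 0.28 in DKO_CD (adjusted p = 0.135, limma). The TKO_Ex call was lost without any of 6 of the 8 libraries, with adjusted p of 0.093 to 0.107 (limma), and both calls were lost with no filter. Leaving out any 1 of the 6 DKO_Ex libraries ended the DKO_Ex call, with adjusted p of 0.0567 to 0.114 (limma) and differences of -1.66 to -1.28. With the replicate number as a block, the TKO_Ex and DKO_Ex calls of Epha4 were both lost.

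Epha7, an EphA receptor known from the neural folds and the dorsal neural tube, passed in TKO_Ex and not in WT. The TKO_Ex Fb libraries were at 15.6, 13.1, 15.1 and 11.8 FPKM and the Mb libraries at 4.4, 5.88, 6.25 and 8.76. These 2 ranges did not overlap, and the difference was -1.05 ± 0.19 (adjusted p = 0.0192, limma). In WT the Fb was at 9.71, 14.4 and 21.5 FPKM (lowest, median, highest) and the Mb at 6.13, 10 and 27.7, a difference of -0.36 ± 0.28 (adjusted p = 0.539, limma). The WT Mb library at 27.7 FPKM was replicate 5, and without it the WT Mb ran from 6.13 to 14.3 and the difference was -0.61 (adjusted p = 0.122, limma). The difference between the TKO_Ex and WT effects was itself not past the threshold, at -0.69 with an interval of -1.52 to 0.15 (adjusted p = 0.819, limma), and it was -0.44 without WT Mb replicate 5. DKO_Ex had 10.5, 12.2 and 12.1 FPKM in the Fb and 8.81, 10.8 and 10.3 in the Mb, and DKO_CD had 10.6, 13.9 and 14.1 in the Fb and 20.5, 11.2 and 6.64 in the Mb. Both groups overlapped between the tissues. The TKO_Ex call was lost without any of Fb replicates 1, 2 and 3 or Mb replicates 2 and 3, with adjusted p of 0.0535 to 0.0678 (limma). It was also lost with the replicate number as a block.

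The highest Epha7 levels of the Mb were in the libraries with the most Pax6. The 3 Mb libraries with the most Pax6 were WT replicate 5, WT replicate 3 and DKO_CD replicate 1, at 52.7, 45.9 and 40 FPKM. They were also the 3 with the most Epha7, at 27.7, 14.3 and 20.5 FPKM. The Mb library with the least Pax6, TKO_Ex replicate 1 at 5.15 FPKM, had the least Epha7, at 4.4. Between these ends the order was not kept, and DKO_CD replicate 2, which ranked 11 for Pax6, ranked 4 for Epha7. Epha3 was highest in the library with the most Pax6, at 5.12 FPKM, but the DKO_CD library with 40 FPKM of Pax6 held 1.02 of it. Efna2 did not follow this order, with its 3 highest Mb levels of 124, 119 and 114 FPKM in libraries that ranked 6, 8 and 3 for Pax6. How far the position of the cut between the tissues sets these levels was not tested.

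**Figure D2:**
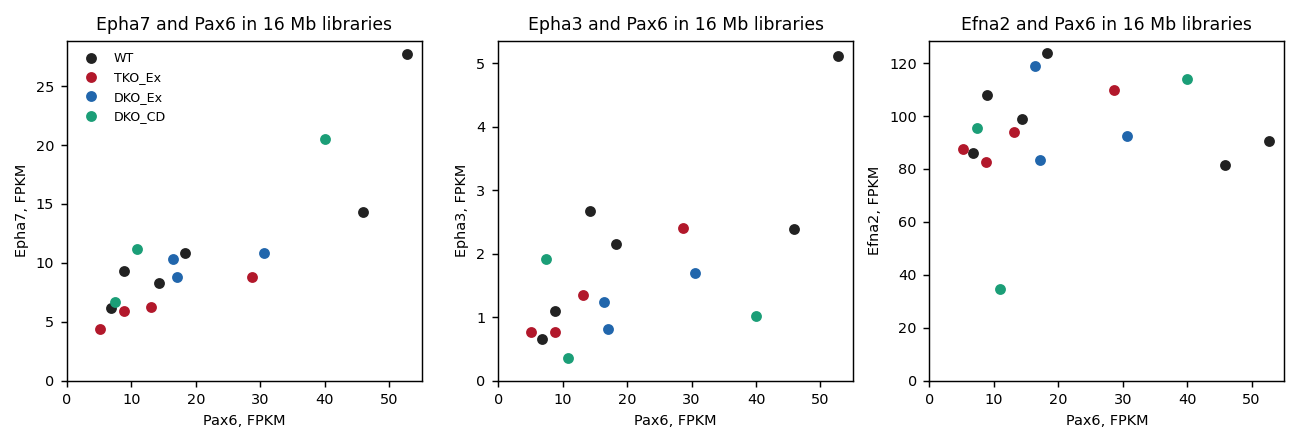
FPKM of Epha7, Epha3 and Efna2 against FPKM of the forebrain marker Pax6 in the 16 Mb libraries, coloured by group. The 3 libraries at 40 FPKM of Pax6 or more hold the 3 highest Epha7 levels, and Efna2 shows no such order.

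Epha3, an EphA receptor, was the lowest of the members, and each library held about 8 to 119 fragments of it at most. In the WT Fb it was at 1.49 to 2.47 FPKM and in the WT Mb at 0.662 to 5.12. The WT difference was 0.06 with an interval of -0.52 to 0.64, and it turned to -0.14 without Mb replicate 5. The other groups overlapped too. TKO_Ex held 1.95, 1.47, 1.46 and 1.42 FPKM in the Fb and 0.761, 0.772, 1.35 and 2.41 in the Mb, and DKO_Ex held 1.26, 2.02 and 1.88 in the Fb and 0.819, 1.7 and 1.24 in the Mb. DKO_CD had 4.67, 1.63 and 2.42 FPKM in the Fb and 1.02, 0.354 and 1.91 in the Mb, a difference of -0.89 that did not pass (adjusted p = 0.542, limma). Ephb1, a receptor of B-type ephrins, leaned to the Fb, at 3.86, 5.14 and 6.12 FPKM (lowest, median, highest) in WT against 2.64, 3.53 and 4.83 in the Mb. Its WT difference of -0.36 had an interval of -0.68 to -0.03 but missed the adjusted threshold (adjusted p = 0.188, limma). In TKO_Ex its Fb libraries, at 6.09, 6.08, 5.71 and 4.88 FPKM, were above its Mb libraries, at 4.29, 3.95, 4.25 and 2.87, and the difference of -0.47 missed it too (adjusted p = 0.225, limma). Ephb1 overlapped in DKO_Ex, at 5 to 5.55 FPKM in the Fb and 3.59 to 5.44 in the Mb, but not in DKO_CD, at 4.78, 6.51 and 6.38 in the Fb and 3.05, 4.59 and 3.26 in the Mb. Ephb2, the EphB receptor with the highest level among the members, was at 14.2 to 22.9 FPKM in the WT Fb and 13.4 to 30.4 in the WT Mb. The WT Mb libraries fell apart, with 30.4, 30.2 and 22.8 FPKM in replicates 2, 5 and 3 and 13.4 and 14.7 in replicates 4 and 1. The difference of 0.21 had an interval of -0.22 to 0.63. In the mutants Ephb2 was at 13.1 to 22.3 FPKM in the Fb and 11.8 to 28.3 in the Mb of TKO_Ex, at 14.1 to 16 and 16.1 to 25.7 in DKO_Ex, and at 20.1 to 26.6 and 18.7 to 32.5 in DKO_CD. Its Mb libraries in DKO_Ex were all above the Fb libraries of that group, although the lowest, at 16.1 FPKM, was close to the highest Fb library at 16, and the difference of 0.44 did not pass (adjusted p = 0.339, limma).

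Counted over the 10 members, 4 passed in WT, 3 of them higher in the Mb and 1 lower. Of all genes, 8.26% passed in WT, 4.66% higher and 3.6% lower in the Mb. In TKO_Ex 5 of 10 passed, 3 higher and 2 lower, where 2.89% of all genes passed (1.54% and 1.35%). In DKO_Ex 4 passed, 3 higher and 1 lower, beside 2.58% of all genes (1.66% and 0.924%). In DKO_CD 1 passed, higher, beside 0.507% of all genes (0.224% higher and 0.283% lower). All 10 passed the filter on low values in every comparison, since each had a mean of at least 1 FPKM. The 10 were chosen with earlier results of these data known, so their counts are not those of an independent list. The median log2 difference of the members was 0.13 in WT and 0.12 in TKO_Ex, beside -0.00 and 0.00 over all genes tested. In DKO_Ex it was 0.24 beside 0.04, and in DKO_CD -0.02 beside -0.02. In WT the ranges of 4 members did not overlap (5.59% of all genes), in TKO_Ex those of 7 (8.94%), in DKO_Ex those of 6 (20.5%) and in DKO_CD those of 5 (15.6%). Without TKO_Ex replicate 3, the replicate with Cdh6 in the WT range, 2 members passed in TKO_Ex, namely Efna2 and Efnb3. With the replicate number as a block, 2 members passed in TKO_Ex and 2 in DKO_Ex.

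**Figure D3:**
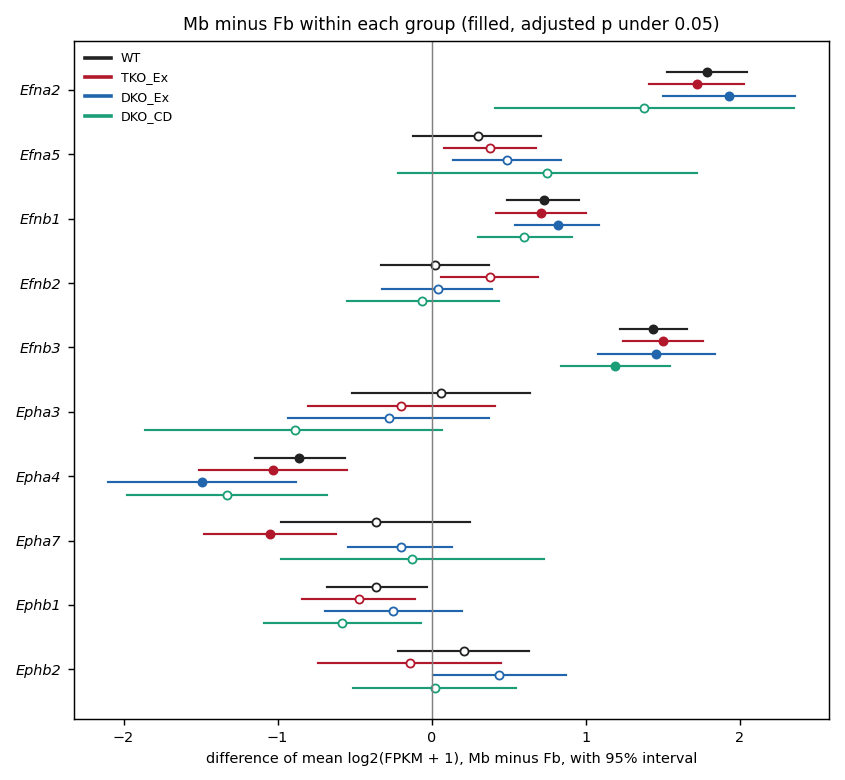
Difference of mean log2(FPKM + 1) between Mb and Fb for each member in WT, TKO_Ex, DKO_Ex and DKO_CD, with 95% intervals; filled points passed the adjusted threshold. Efna2, Efnb1 and Efnb3 lie above 0 and Epha4 below 0 in all 4 groups, and Epha7 is past the threshold in TKO_Ex.

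Levels per transcript length, FPKM, allow the genes to be set in order within WT. In the Mb the first 3 places of the family were Efna2 at 98.1, Efnb3 at 60.7 and Efnb1 at 41.2 FPKM, and each of these ranges was clear of the next. Below them Ephb4, Ephb2, Efnb2, Efna5 and Epha7 overlapped with their neighbours, from 23 down to 12.7 FPKM. In the Fb no such step was seen among the first 10 genes, which ran from Efna2 at 27.6 to Ephb3 at 12.3 FPKM with each range overlapping the next. A step followed between Ephb3 and Epha4, at 7.01 FPKM. Epha4 ranked 11 in the Fb and 14 in the Mb. The 5 ephrins summed to 95.4 to 124 FPKM in the WT Fb and to 218 to 281 in the WT Mb, whereas the 5 receptors summed to 36.3 to 56 and to 29.2 to 71.5. Efna2 and Efnb3 made up 41 to 48.3% of the ephrin sum in the WT Fb and 62 to 72% in the WT Mb. The sums in the mutant groups had medians of 103 to 114 FPKM in the Fb and 237 to 247 in the Mb for the ephrins.

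**Figure D4:**
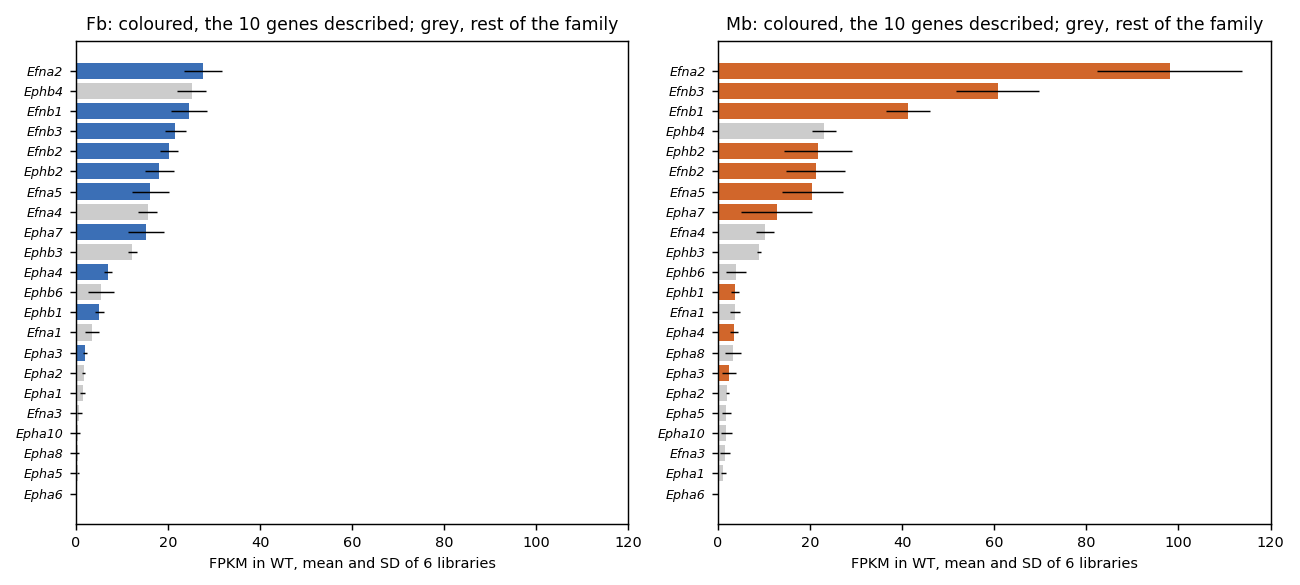
Mean FPKM with SD over 6 WT libraries for the 22 genes of the family in the Fb (left) and the Mb (right), in descending order, with the 10 members coloured and the rest grey. Efna2, Efnb3 and Efnb1 stand clear of the other genes in the Mb at 98.1, 60.7 and 41.2 FPKM and do not in the Fb.

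Of the 12 other genes of the family, 11 were tested in WT and 4 passed, 2 higher and 2 lower in the Mb. Of all genes, 8.26% passed in WT. Epha8, an EphA receptor known from the dorsal midbrain, was at 0 to 0.997 FPKM in the Fb and at 1.61 to 5.65 in the Mb, a difference of 1.48 ± 0.27 (adjusted p = 0.00345, limma). Epha5, an EphA receptor of projecting neurons, was at 0.12 to 0.661 FPKM in the Fb and at 0.508 to 3.53 in the Mb, a difference of 0.94 ± 0.24 (adjusted p = 0.03, limma). Both had their highest Mb level in WT replicate 5, the library with the most Epha7 and Pax6. Their WT Fb means, 0.429 FPKM for Epha8 and 0.403 for Epha5, were under the filter of 1 FPKM, which they passed only through the Mb. At such Fb levels a gene could be tested only if it was higher in the Mb, and the count of 4 carries this limit. The Epha5 call was lost in 6 of the 11 fits that left out 1 WT library and kept the gene, which fell under the filter without Mb replicate 5. Lower in the Mb were Efna4, an A-type ligand, at 14 to 18.6 against 7.18 to 12.7 FPKM, and Ephb3, an EphB receptor, at 10.8 to 13.4 against 8.2 to 9.47. Their differences were -0.59 ± 0.13 (adjusted p = 0.0126, limma) and -0.43 ± 0.08 (adjusted p = 0.00385, limma). The 7 others tested had mean levels of 0.467 to 25.2 FPKM in the WT Fb, and Epha6 was listed at 0 in all 32 libraries. None of those tested passed between the tissues in a mutant group, where 8 or 9 of the 12 were tested. Epha5 was under the filter in every mutant group and Epha8 in TKO_Ex, so they were not tested there. Ratios of mean FPKM, Mb over Fb, were 2.31, 3.24 and 2.69 for Epha5 in TKO_Ex, DKO_Ex and DKO_CD. For Epha8 they were 1.06, 3.26 and 2.51. Of all genes, 2.89% passed in TKO_Ex, 2.58% in DKO_Ex and 0.507% in DKO_CD.

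Genes that carry the signal in the cell were counted from a list of 24, among them the ephrin-cleaving protease Adam10, Src-family kinases and Nck adaptors. None of the 24 passed in WT (limma), where 8.26% of all genes passed. Of the 24, 6 had an unadjusted p under 0.05, where 20.9% of all genes did. The median difference was 0.04 beside -0.00 over all genes. Adam10 was 0.29 higher in the Mb (adjusted p = 0.0837, limma) and Rgs3, which binds B-type ephrins inside the cell, was at -0.69 (adjusted p = 0.0583, limma). With median-of-ratios scaling 2 of the 24 passed, and 0 to 2 did in the fits that left out WT libraries. In the 3 mutant groups 0 of 24 passed as well, where 0.507% to 2.89% of all genes passed. In these groups 2 to 4 of the 24 had an unadjusted p under 0.05, where 10.1% to 14.4% of all genes did.

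The genes most like each of the 4 members were sought by Pearson's r on log2(FPKM + 1) over the 32 libraries, among 9142 genes outside the family with a mean of at least 5 FPKM. All points share the tissues, so r mostly describes the tissue contrast. Efna2 was most like Tal2, a transcription factor known from the midbrain, with r = 0.97, then 2510009E07Rik and BC024139 with r = 0.95 each. Efnb3 was most like En2, with r = 0.97, then BC024139 and Hes3, each with r = 0.96. Hes3 is a repressor of the Hes family that is known from the isthmus. Efnb1 was most like Pou3f3 with r = 0.92, Dtx4 and Mn1 with r = 0.91 each. Epha4 was most like Mest with r = 0.90, Shisa2 and Aldh1a3, a retinoic acid enzyme, with r = 0.89 each.

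The mutant groups were then compared with WT within each tissue, to see whether losing the cadherins changed any member. In the Mb 0 of 10 members passed in TKO_Ex, DKO_Ex and DKO_CD (limma), where 0.0898%, 0.0903% and 0.0375% of all genes passed. In the Fb 0 of 10 passed in the same groups, where 0.0603%, 0.0759% and 0.0378% of all genes did. An unadjusted p under 0.05 was reached by 1 member in the Mb of TKO_Ex, by 1 in the Mb of DKO_Ex, and by 0 in each of the other 4 comparisons. Of all genes, 8.38% and 5.46% reached it in the first 2 of these and 6.69% to 8.66% in the others, so 1 of 10 members is near that share. No member had a mutant range clear of the WT range in any of the 6 comparisons. Of all genes, 1.74%, 3% and 3.38% did in the Mb of TKO_Ex, DKO_Ex and DKO_CD, and 2.23%, 3.7% and 4.22% in the Fb.

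The member at unadjusted p under 0.05 in the TKO_Ex Mb was Epha7, at -0.78 with an interval of -1.52 to -0.05 (adjusted p = 0.579, limma). Of its TKO_Ex Mb values, 4.4 and 5.88 FPKM lay below the lowest WT library at 6.13, and 6.25 and 8.76 lay within the WT range, whose top values were 14.3 and, in replicate 5, 27.7. Without that WT library the difference was -0.54 (adjusted p = 0.672, limma). In the DKO_Ex Mb it was Epha4, at -0.50 with an interval of -0.98 to -0.03 (adjusted p = 0.901, limma). The lowest and highest differences in the Mb were -0.78 for Epha7 and 0.30 for Efnb2 in TKO_Ex, -0.50 for Epha4 and 0.20 for Efna5 in DKO_Ex, and -0.62 for Epha3 and 0.23 for Efna5 in DKO_CD. In the Fb they were -0.20 for Epha3 and 0.15 for Ephb1 in TKO_Ex. They were -0.33 for Epha7 and 0.13 for Epha4 in DKO_Ex, and -0.22 for Efna5 and 0.33 for Epha3 in DKO_CD. Intervals were 0.21 to 0.95 wide on either side of the difference in the Mb and 0.23 to 0.55 in the Fb, so these data do not show that the levels were alike.

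**Figure D5:**
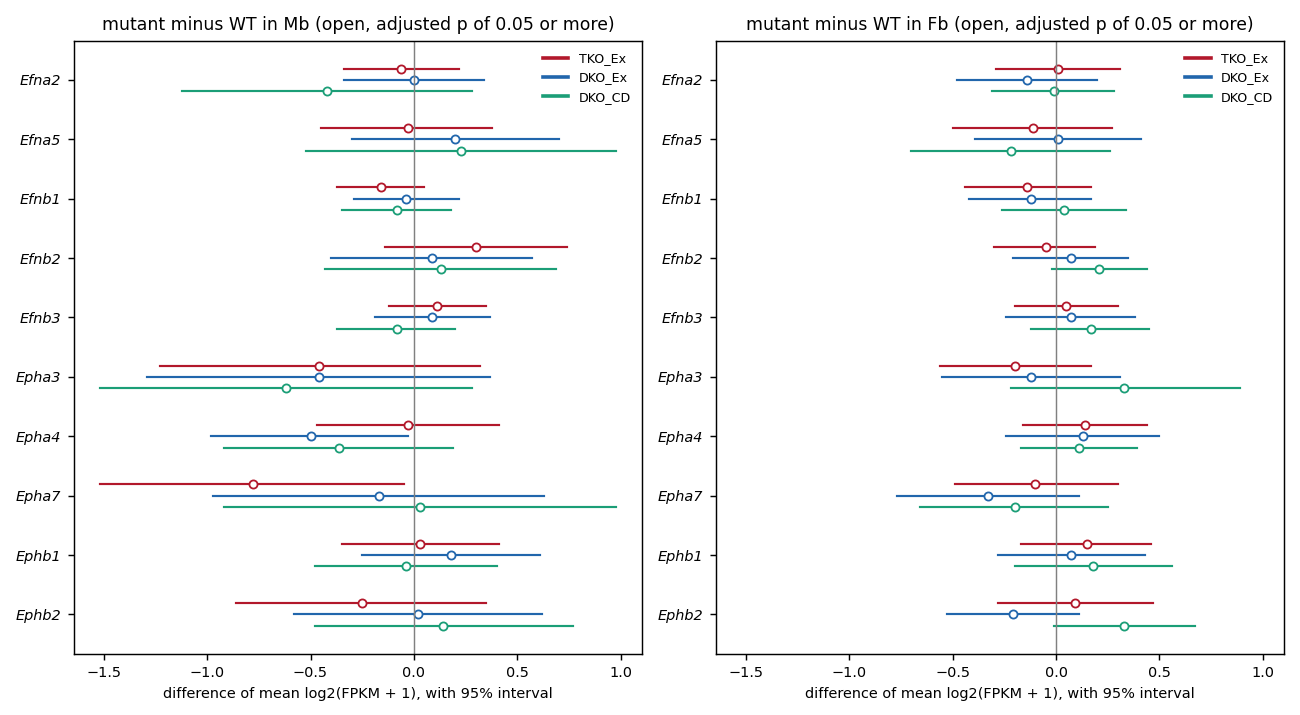
Difference of mean log2(FPKM + 1) between each mutant group and WT for each member in the Mb (left) and the Fb (right), with 95% intervals; all points are open because none passed the adjusted threshold. The largest differences are those of Epha7 in the TKO_Ex Mb (-0.78) and Epha3 in the DKO_CD Mb (-0.62), and the widest intervals are in the Mb.

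Last, the tissue difference itself was compared between each mutant group and WT. None of the 10 members passed in TKO_Ex, DKO_Ex or DKO_CD (limma), where 0.0149%, 0% and 0.00746% of all genes passed, and 0, 1 and 0 members had an unadjusted p under 0.05, beside 6.5%, 3.88% and 4.83% of all genes. The 1 member was Epha4 in DKO_Ex, whose tissue difference was larger than in WT by -0.63, with an interval of -1.19 to -0.08 (adjusted p = 1, limma). For Epha4 the same comparison gave -0.17 (interval -0.67 to 0.32) in TKO_Ex and -0.47 (interval -1.04 to 0.10) in DKO_CD. For Efna2 it gave -0.07 (interval -0.47 to 0.33) in TKO_Ex and -0.41 (interval -1.17 to 0.36) in DKO_CD, and the latter was 0.11 without Mb replicate 2. Epha3 in DKO_CD had the largest value, -0.95, with an interval of -1.98 to 0.07. The comparisons with WT share the WT libraries, so they are not independent of each other.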

How the data were processed

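RNA-seq of Fb and Mb tissue was analysed from 32 libraries. Per the labels and the methods of the study, libraries were directional and reads were aligned to GRCm38/mm10 by TopHat2. The authors deposited values in FPKM, made by Cufflinks, which scales fragments by transcript length and by mapped fragments. Versions and the gene annotation are not given in the sources used here. HTSeq counts and DESeq2 are named in the submitters' notes and were not used here. In 12 files the column heading and the record name opposite DKO groups. The headings were followed, and the grouping by record was an alternative.

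The 65 repeated identifiers were summed, and 48218 of 48576 identifiers were found in GENCODE M21. Depth was estimated from the steps of low values in 771 genes of at least 4000 bp. It was 2060000 to 3430000 fragments, with 78.5 to 87.0% of values within 0.15 of a whole fragment. Fragments per member are upper estimates over the whole exon length.

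Differences were tested with limma 3.58.1 (R 4.3.3) on log2(FPKM + 1), so changes of low genes are understated. A mean-variance trend was used, genes whose mean in a fit was under 1 FPKM were left out, and p-values were adjusted by Benjamini-Hochberg over all genes, with a threshold of 0.05. Intervals are 95%. Each comparison was fitted on its own groups. The script was tested on simulated data.

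The members, the family, the signalling list and the markers were chosen with earlier results of these data known. All members were named. Of the other family genes and the signalling list those passing in WT were named. Adam10 and Rgs3 were chosen after their values were seen. The early neuron marker Tubb3 was not analysed here. The alternatives were pseudocounts of 0.1 and 5, no filter, median-of-ratios scaling, all libraries in 1 fit, a replicate block, grouping by record and leaving out libraries. Leaving out replicate 5 of WT or replicate 2 of DKO_CD in both tissues was added after seeing the data. Promoters came from RefSeq, with 9 of 10 members matched. Figures were drawn with matplotlib 3.10.9 in Python 3.11.15.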

Additional observations from a re-analysis of the deposited data

Results flagged for a closer look

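Of 40 sets of WT or TKO_Ex libraries of a member in a tissue, 3 held a library far from the others, and chance flags about 1 set in 20. Efna5 in WT Mb replicate 4 was at 33 FPKM, with the next library at 20.1. Epha3 in TKO_Ex Fb replicate 1 was at 1.95 FPKM, with the next at 1.47. Ephb2 in TKO_Ex Fb replicate 3 was at 13.1 FPKM, with the next at 20.9, and this is the replicate whose Cdh6 level was within the WT range. None of the 3 genes passed between the tissues in these groups.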

How the results depend on the processing

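In WT 4 members passed in all 19 alternatives, and 0 passed against WT or in the comparison of tissue differences in any. In TKO_Ex, 5 members passed as reported, 2 with a replicate block, 2 without replicate 3 in both tissues and 2 to 5 without single libraries. In DKO_Ex, 4 passed as reported, 2 with a replicate block, 1 when grouped by record and 2 to 3 without single libraries. In DKO_CD, 1 passed as reported, 0 with no filter, 4 with all 32 libraries in 1 fit, 4 when grouped by record and 0 to 1 without single libraries. The fit with all libraries shares their spread, and grouping by record swaps the DKO groups. The cause of the other shifts was not tested. The block ended the TKO_Ex calls of Efnb1, Epha4 and Epha7 (adjusted p = 0.0661, 0.0703 and 0.0877, limma) and the DKO_Ex calls of Efnb1 and Epha4, and moved no other member count. Same-numbered Mb and Fb libraries deviated together with r of 0.026 to 0.094 in WT, 0.008 to 0.116 in TKO_Ex, 0.076 to 0.123 in DKO_Ex and 0.029 to 0.14 in DKO_CD, against medians of -0.056 to -0.022 for other numbers. Of the 32 libraries, 27 correlated best with their own number, among 6 numbers in WT, 4 in TKO_Ex and 3 in each DKO group. This goes with numbers that pair the tissues, and the study collected Fb and Mb separately from its embryos. The labels do not say that a number is an embryo, so the main fits did not pair the libraries. If the numbers are embryos, the block fits are the paired ones. Efna2 and Efnb3 passed in TKO_Ex in all 15 alternatives. Members with a difference near 0 turned direction. Without single libraries, Efnb2 ran from -0.09 to 0.12 in WT, from -0.05 to 0.17 in DKO_Ex and from -0.29 to 0.10 in DKO_CD, and Epha3 in WT from -0.14 to 0.24. Without WT replicate 5 in both tissues Efnb2 was at -0.01 and Epha3 at -0.19. Ephb2 ran from -0.37 to 0.03 in TKO_Ex and from -0.22 to 0.17 in DKO_CD, and Epha7 from -0.51 to 0.24 in DKO_CD. With median-of-ratios scaling Efnb2 in DKO_Ex was at -0.01. Grouped by record, Efnb2 was at -0.06 in DKO_Ex and 0.04 in DKO_CD, Efna5 and Epha3 in the DKO_CD Fb against WT at 0.01 and -0.12, and the DKO_CD change of the Efna2 tissue difference at 0.14. Without single libraries that last value ran from -0.73 to 0.11, Efna5 in the DKO_CD Mb against WT from -0.01 to 0.71 and Epha4 in the DKO_Ex Fb against WT from -0.08 to 0.24. Of all genes, 788 to 1317 passed in WT under the alternatives (1102 as reported), 163 to 663 in TKO_Ex (389), 68 to 542 in DKO_Ex (344) and 26 to 362 in DKO_CD (68). In the 6 comparisons with WT, 5 to 12 passed as reported and 0 to 52 under the alternatives. Of the signalling list 0 to 2 passed in WT. Epha3 is limited by depth, at 8 fragments in its lowest library.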
